A study of Mus musculus with 10 samples.

Results

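Egr1, Egr2 and Egr3 encode zinc finger transcription factors of the early growth response (EGR) family, Nr4a1, Nr4a2 and Nr4a3 encode orphan nuclear receptors of the NR4A family, and Nab1 and Nab2 encode corepressors that bind EGR proteins. These 8 genes were chosen by symbol among the 47719 Ensembl gene identifiers of the deposited tables. They were compared between 5 RNA-seq libraries of IgM plasma cells and 5 of IgG1 plasma cells, sorted from mouse spleen. In both groups the cells came from donor B cells that carried S1PR2-CreERT2, the Ai14 reporter and B1-8germ and were distinguished from the host's own cells by a congenic marker. S1PR2-CreERT2 is a Cre driven from the S1pr2 gene, which is active in germinal centre B cells, and it acts only while tamoxifen is present. Ai14 makes a cell and its progeny express tdTomato once Cre has acted, and B1-8germ is a germline heavy chain gene that favours binding to the hapten NP. The wild-type hosts of both groups were immunized with NP-CGG in alum on day 0 and given tamoxifen on days 5 and 6, and tdTomato+ donor plasma cells were sorted by isotype on day 10. The groups thus share every allele and treatment and differ in the sorted isotype, and cells that passed through the germinal centre outside the tamoxifen window would lack the mark. Whether each library was made from its own animal or from pooled animals is not given in the sources used here, so a p-value covers only the spread from library to library, part of which may be technical.

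EGR and NR4A genes are immediate early genes, transcribed within minutes of antigen receptor signalling without new protein synthesis. In lymphocytes the ERK cascade reaches Egr1 through SRF and its ETS partners, and calcium signals reach the Nr4a genes through NFAT, MEF2 and CREB family factors. NAB1 and NAB2 bind EGR1, EGR2 and EGR3 and bring in the NuRD complex, and Nab2 is itself a target of EGR proteins, which closes a feedback loop. Nr4a1 in mouse B cells is widely used as a reporter of recent antigen receptor signalling.

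The unit was FPKM, a fragment number corrected for the length of the transcript and the size of the library, so levels of different genes can be set beside each other within a library. Estimated from the steps between low values, and with fragments of 200 bases assumed, the libraries held about 27030000 to 31370000 fragments in IgM and 26540000 to 38670000 in IgG1. Under that assumption a single fragment on a transcript of 3000 bases was worth 0.0114 to 0.0132 FPKM in IgM and 0.00923 to 0.0135 FPKM in IgG1. More genes were above 0 in IgM libraries (15121 to 15800) than in IgG1 libraries (13286 to 13961). Ighm, the IgM constant region, made up 71.8% to 83.9% of heavy chain constant FPKM in IgM libraries and 1.02% to 1.44% in IgG1 libraries, while Ighg1, the IgG1 constant region, made up 9.21% to 17.3% in IgM and 97.6% to 98.3% in IgG1. Plasma cell genes were high in both groups, but not equally. All 9 were tested with limma as given below: 8 were higher in IgM and 1, Xbp1, was lower, at an adjusted p under 0.05. Over all tested genes 20.2% were called higher and 18.1% lower in IgM. The 9 plasma cell genes summed to 40352 to 44549 FPKM in IgM and 23662 to 27105 FPKM in IgG1. Most of this was Jchain, with a mean of 38835 FPKM in IgM and 21143 FPKM in IgG1. Tnfrsf17, named after its value was seen, averaged 138 FPKM in IgM and 48.3 FPKM in IgG1, Prdm1 53.5 FPKM in IgM and 29.2 FPKM in IgG1, Sdc1 284 FPKM in IgM and 258 FPKM in IgG1, and Xbp1 2928 FPKM in IgM and 3194 FPKM in IgG1. The 10 mature B cell genes summed to 909 to 983 FPKM in IgM and 865 to 938 FPKM in IgG1. Of these 6 were tested, and 5 were higher and 1 lower in IgM. Cr2 and Cxcr5, among the 5, averaged 0.436 and 0.265 FPKM in IgG1 and were tested only through their IgM level. Among the higher was Ms4a1, which averaged 62.9 FPKM in IgM libraries and 42.9 FPKM in IgG1 libraries. The part of these cell type genes in the results was not tested. The 7 germinal centre genes summed to 43.3 to 52.7 FPKM in IgM and 37.0 to 44.5 FPKM in IgG1. Of the 4 tested 1 was higher in IgM, near the share over all tested genes. T, NK, myeloid, dendritic, erythroid, platelet and stromal lists each summed to at most 6.96 FPKM in any IgM library and 7.77 FPKM in any IgG1 library, with Cd5, Ncr1, Gzma, S100a8, S100a9, Mpo, Itgax, Gp9, Col1a1, Col1a2 and Pdgfrb at 0 in all 10. Of these lists' tested genes only Cd4 passed (log2 difference -1.12, limma adjusted p = 0.00458). Its mean was 0.280 FPKM in IgM libraries and 1.87 FPKM in IgG1 libraries. The libraries did not overlap, as in 26.3% of tested genes in either direction. Cd4 was tested only through its IgG1 level, so this call carries no weight of its own.

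In IgM plasma cells Egr1, Egr2, Nab1 and Nab2 were higher than in IgG1 plasma cells, with no overlap between the libraries of the groups, whereas Egr3 and the 3 Nr4a genes were near or at 0 in both. Genes that averaged 1 FPKM or more across the 10 libraries were tested with limma on log2(FPKM + 1), and 9900 genes entered, including 4 of the 8. All 4 passed at an adjusted p under 0.05 and were higher in IgM, where 20.2% of all tested genes were called higher in IgM. Non-overlapping libraries with IgM higher were seen in 13.3% of tested genes. Egr2 and Nab2 averaged under 1 FPKM in IgG1 and were tested only through their IgM level, so the count over the tested genes carries no weight of its own. In bulk libraries fewer expressing cells and less RNA per cell cannot be told apart.

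**Figure D1:**
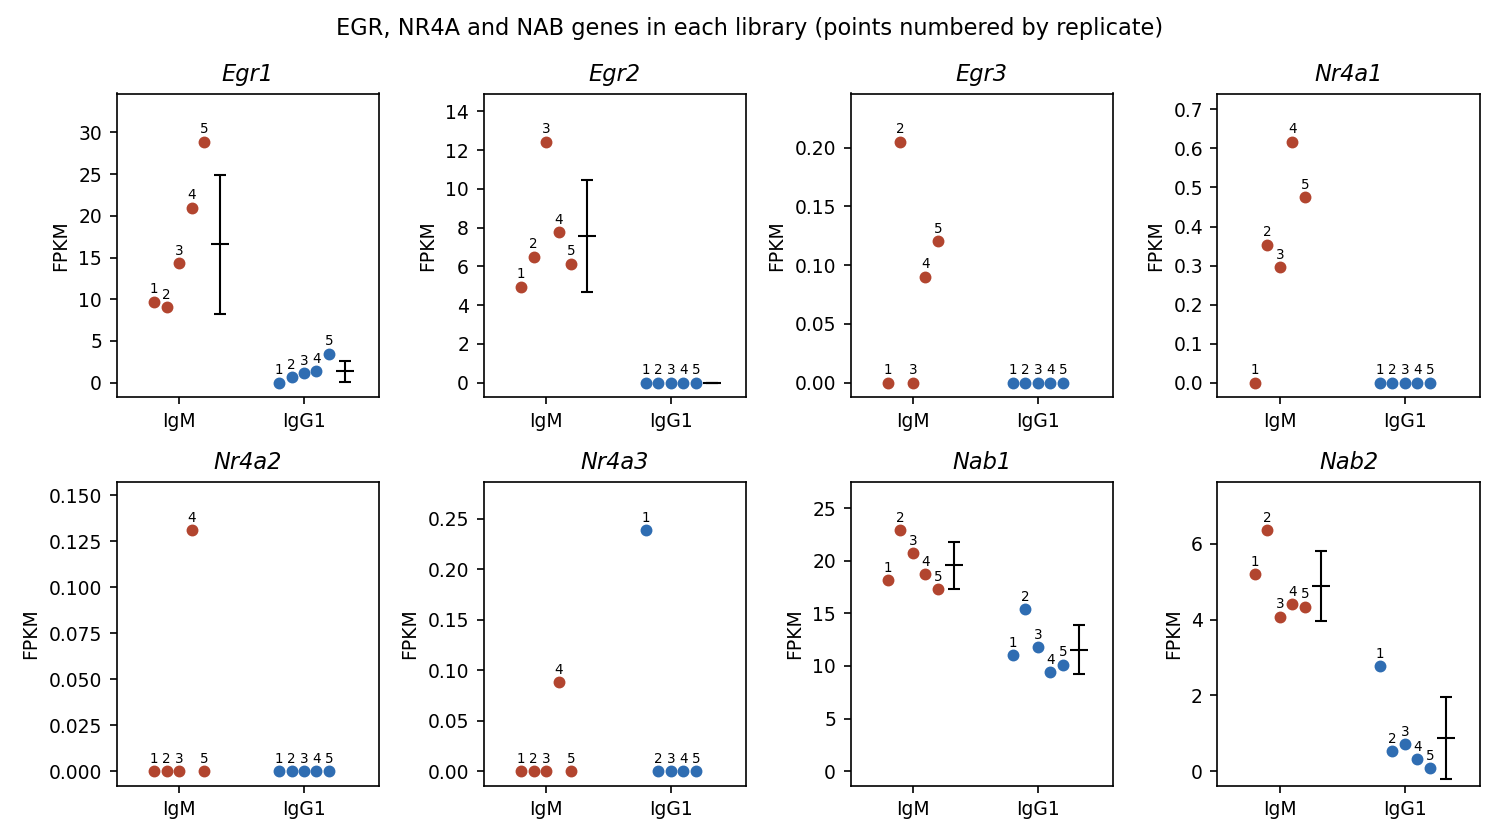
FPKM (vertical axis, linear, a scale of its own in each panel) of the 8 genes in each IgM library and each IgG1 library, points numbered by replicate, with mean ± SD bars (n = 5 each) for the 4 tested genes. The IgM points of Egr1, Egr2, Nab1 and Nab2 all lie above the IgG1 points, and the panels of Egr3 and the Nr4a genes stay under 1 FPKM.

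Egr1, on chromosome 18 (chr18:34859823-34864984, plus strand, GRCm38), encodes the founding EGR activator. It stood at 9.73, 9.04, 14.3, 21.0 and 28.9 FPKM in IgM replicates 1 to 5, and at 0, 0.684, 1.18, 1.39 and 3.47 FPKM in IgG1 replicates 1 to 5. The lowest IgM library lay above the highest IgG1 library, IgM replicate 5 and IgG1 replicate 5 were the highest of their groups, and IgG1 replicate 1 was listed at 0. Egr1 averaged 16.6 ± 8.36 FPKM in IgM and 1.35 ± 1.30 FPKM in IgG1 (SD, n = 5 each), a ratio of 12.3. The log2 difference was 2.95 (SE 0.41; limma adjusted p = 1.62e-04). IgG1 replicate 5 carried much of the IgG1 mean, and without it the ratio was 20.4 (adjusted p = 7.98e-06). The 5 IgM libraries themselves spanned 3.19-fold.

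Egr2, on chromosome 10 (chr10:67535475-67542188, plus strand), encodes an activator that in T cells is tied to anergy and in Schwann cells to myelination. Its level was 4.95, 6.51, 12.4, 7.78 and 6.15 FPKM in IgM replicates 1 to 5, and it was listed at 0 in all 5 IgG1 libraries. Every IgM library was above every IgG1 library, and IgM replicate 3, not the replicate highest for Egr1, was the highest. Egr2 averaged 7.56 ± 2.90 FPKM in IgM (SD, n = 5), and no fold is given against a group at 0. On the log2(FPKM + 1) scale the difference was 3.04 (SE 0.23; limma adjusted p = 1.67e-08). An exact 0 in FPKM can be a failed estimate. None of the 3208 protein-coding genes averaging at least 20 FPKM was at 0 in any library. Egr2 averaged 3.78 FPKM over the 10 libraries, below that level, so this does not settle its values of 0.

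Egr3, on chromosome 14 (chr14:70077203-70082614, plus strand), encodes a close relative of EGR2 that acts with it in lymphocytes. It was listed at 0, 0.205, 0, 0.0902 and 0.120 FPKM in IgM replicates 1 to 5 and at 0 in all 5 IgG1 libraries. The groups overlapped at 0, and Egr3 was too low for the filter. With no filter its adjusted p by limma was 0.204. Egr4, the fourth family member, which lacks the region that NAB proteins bind, was at 0 in all 10 libraries.

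The Egr2 promoter is shown because this gene was at 4.95 FPKM or more in every IgM library and listed at 0 in every IgG1 library, and the Nr4a1 promoter because Nr4a1 is also an immediate early gene and stayed near 0. RefSeq windows on GRCm38.p6 were found for 6 of the 8 genes. Egr1 and Egr3 had no window, so their promoters were not searched. The 250 bases before each start were searched on both strands for 6 motifs. These were the EGR site GCGNGGGCG, the cyclic AMP response element (CRE) TGACGTCA, its core TGACG, the CArG box bound by SRF, the AP-1 site TGANTCA and the NR4A site (NBRE) AAAGGTCA. The CArG box was searched as CCWWWWWWGG, where W is A or T. The core lies within the full CRE, so every full CRE also counts as a core. Both sequences run 5′ to 3′ on the strand of the gene, with matches in capitals (a match on the other strand appears as its reverse complement).
Egr2, chr10:67537619-67537868, plus strand: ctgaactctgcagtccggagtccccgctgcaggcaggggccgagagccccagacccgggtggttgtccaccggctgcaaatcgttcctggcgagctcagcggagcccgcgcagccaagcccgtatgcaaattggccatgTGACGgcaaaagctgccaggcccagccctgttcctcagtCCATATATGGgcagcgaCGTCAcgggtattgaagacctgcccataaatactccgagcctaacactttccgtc
Nr4a1, chr15:101266596-101266845, plus strand: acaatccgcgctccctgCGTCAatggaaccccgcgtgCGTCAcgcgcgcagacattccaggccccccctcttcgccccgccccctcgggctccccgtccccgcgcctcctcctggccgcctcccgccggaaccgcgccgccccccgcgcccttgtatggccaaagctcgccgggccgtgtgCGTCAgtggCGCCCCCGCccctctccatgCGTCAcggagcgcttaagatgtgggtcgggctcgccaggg
RefSeq gave 5 starts for Egr2, and the window shown is 1 of 3 overlapping ones that hold both the CArG box and CRE cores. The window at 67537566 held a CArG box and no CRE core, and that at 67535499 held none of the 6 motifs. In the Egr2 window shown the capitals mark a CArG box 72 to 63 bases before the start at position 67537869, between CRE cores at 111 to 107 and at 55 to 51 bases. In the Nr4a1 window they mark 4 CRE cores and 1 EGR site 60 to 52 bases before the start at position 101266846. No exact CArG box was found there, though the stretch ccttgtatgg is 1 base off that pattern. Among 32851 mouse windows of the same length, 1.47% held a CArG box, 17.8% a CRE core and 4.7% an EGR site. A full CRE was in 1.55%, an AP-1 site in 6.75% and an NBRE in 1.34% of them, and none of these 3 motifs was in any of the 10 windows of the 6 genes. Nr4a2 and Nr4a3, both near 0 in these libraries, had 4 CRE cores each, and Nr4a2 had 1 EGR site. A match is a description of letters and not of binding.

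The NR4A receptors were low, under 1 FPKM in every library, and Nr4a2 and Nr4a3 were at 0 in most libraries. By the depth estimate above, a single fragment on 3000 bases was worth at most 0.0132 FPKM in IgM. Nr4a1 lay above that in 4 of 5 IgM libraries. Nr4a1 (chr15:101254269-101274795, plus strand), also called Nur77, was at 0, 0.354, 0.295, 0.617 and 0.474 FPKM in IgM replicates 1 to 5, and at 0 in all 5 IgG1 libraries. Of the IgM libraries 4 were above every IgG1 library and replicate 1 was at 0 with them. Its mean in IgM was 0.348 FPKM, under the filter, and with no filter the limma adjusted p was 0.0734 (unadjusted p = 0.00992). Nr4a2 (chr2:57106830-57124003, minus strand), also called Nurr1, was above 0 in IgM replicate 4 alone, at 0.131 FPKM. Nr4a3 (chr4:48045153-48086447, plus strand), also called Nor1, was above 0 in IgM replicate 4 at 0.0879 FPKM and in IgG1 replicate 1 at 0.238 FPKM. With no filter the adjusted p by limma was 0.495 for Nr4a2 and 0.672 for Nr4a3, so a difference was not detectable at these levels.

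Nab1, on chromosome 1 (chr1:52457294-52500679, minus strand), encodes the corepressor that is broadly expressed. It stood at 18.1, 22.9, 20.7, 18.7 and 17.3 FPKM in IgM replicates 1 to 5, and at 11.0, 15.4, 11.8, 9.40 and 10.1 FPKM in IgG1 replicates 1 to 5. The groups did not overlap, and replicate 2 was the highest in both. Nab1 averaged 19.5 ± 2.26 FPKM in IgM and 11.6 ± 2.34 FPKM in IgG1 (SD, n = 5 each), a ratio of 1.69. The log2 difference was 0.72 (SE 0.14; limma adjusted p = 5.29e-04).

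The Nab1 promoter is shown for its EGR sites, of which it held 3, the most among the windows searched for these genes. The RefSeq window of Nab1 lies mostly inside its annotated first exon, so each site is given with 10 bases on either side, on the minus strand of GRCm38.p6, with the EGR site in capitals.
Nab1, chr1:52500571-52500599: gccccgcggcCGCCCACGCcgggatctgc
Nab1, chr1:52500539-52500567: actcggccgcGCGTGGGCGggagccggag
Nab1, chr1:52500468-52500496: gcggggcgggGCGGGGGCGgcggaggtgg
The sites lie 141 to 133, 109 to 101 and 38 to 30 bases before the start at position 52500448, and the one farthest from the start is on the opposite strand. One CRE core was also found in the Nab1 window.

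Nab2, on chromosome 10 (chr10:127660918-127668568, minus strand), encodes the corepressor that EGR proteins induce. It was at 5.21, 6.36, 4.08, 4.41 and 4.34 FPKM in IgM replicates 1 to 5, and at 2.78, 0.530, 0.716, 0.309 and 0.0847 FPKM in IgG1 replicates 1 to 5. The groups did not overlap, and IgG1 replicate 1, in which Egr1 was listed at 0, was well above the other IgG1 libraries, while IgG1 replicate 5, the highest for Egr1, was the lowest for Nab2. Nab2 averaged 4.88 ± 0.928 FPKM in IgM and 0.883 ± 1.08 FPKM in IgG1 (SD, n = 5 each), a ratio of 5.52. The log2 difference was 1.78 (SE 0.28; limma adjusted p = 7.92e-05). Without IgG1 replicate 1 the ratio was 11.9 and the log2 difference 2.07 (adjusted p = 2.30e-06).

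Unlike the other 7 genes, Nab2 overlaps annotated genes on the plus strand, counted from gene start to gene end with introns included. The overlap was 40 bases with Stat6, 1668 with Nemp1 and 1646 with the antisense model Gm16229. The library kit does not keep strand, so reads from bases that are exonic in both genes cannot be told apart. How many of the overlapping bases are exonic in both was not measured. Gm16229 was at 0 in all 10 libraries. Stat6, a cytokine signalling factor, averaged 10.2 ± 1.99 FPKM in IgM and 8.63 ± 0.670 FPKM in IgG1, and Nemp1, an inner nuclear membrane protein, averaged 7.38 ± 1.92 FPKM in IgM and 5.20 ± 1.55 FPKM in IgG1 (SD, n = 5 each). Neither passed the test, with log2 differences of 0.20 (limma adjusted p = 0.310) and 0.44 (adjusted p = 0.108). In contrast to Nab1, the Nab2 bases that lie before its start and outside exons, shown for comparison with the Nab1 sites, held none of the 6 motifs.
Nab2, chr10:127666711-127666900, minus strand, GRCm38.p6: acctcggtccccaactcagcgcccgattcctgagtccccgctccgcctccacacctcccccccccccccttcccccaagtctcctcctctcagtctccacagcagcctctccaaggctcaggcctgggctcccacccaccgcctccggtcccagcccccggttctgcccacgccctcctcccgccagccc

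Within libraries, the order of the genes by mean FPKM in IgM was Nab1, Egr1, Egr2, Nab2, Nr4a1, Egr3, Nr4a2 and Nr4a3. Nab1 and Egr1 were not separated by their spread, with Nab1 above Egr1 in 3 of 5 IgM libraries. Egr1 was above Egr2 in all 5, by 1.15 to 4.70 times (median 1.96), and Egr2 was above Nab2 in 4 of 5. In IgG1 Nab1 was above every other gene of the 8 in all 5 libraries and Egr1 was above Nab2 in 4 of 5. Set against protein-coding genes by mean level, Nab1 was above 84.8% in IgM and 79.5% in IgG1, Egr1 above 82.9% in IgM and 61.1% in IgG1, and Nab2 above 69.4% in IgM and 59.0% in IgG1. Egr2 was above 74.0% in IgM.

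At the RNA level, the summed Egr genes were set beside the summed Nab genes. Protein was not measured, and the quotient of the sums was not tested. Summed over the 3 Egr genes, IgM libraries averaged 24.2 ± 8.80 FPKM and IgG1 libraries 1.35 ± 1.30 FPKM (SD, n = 5 each). Summed over Nab1 and Nab2, IgM libraries averaged 24.4 ± 2.93 FPKM and IgG1 libraries 12.4 ± 2.58 FPKM. The Egr sum divided by the Nab sum was 0.629, 0.539, 1.08, 1.25 and 1.62 in IgM replicates 1 to 5, and 0, 0.0429, 0.0944, 0.144 and 0.340 in IgG1 replicates 1 to 5. Every IgM library had a larger quotient than every IgG1 library, and in 3 of 5 IgM libraries the Egr sum exceeded the Nab sum. Between the corepressors, Nab1 was 3.48 to 5.09 times Nab2 in IgM (median 3.98) and 3.98 to 119.7 times Nab2 in IgG1 (median 29.1). The Nr4a sum reached at most 0.836 FPKM in IgM and 0.238 FPKM in IgG1.

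**Figure D2:**
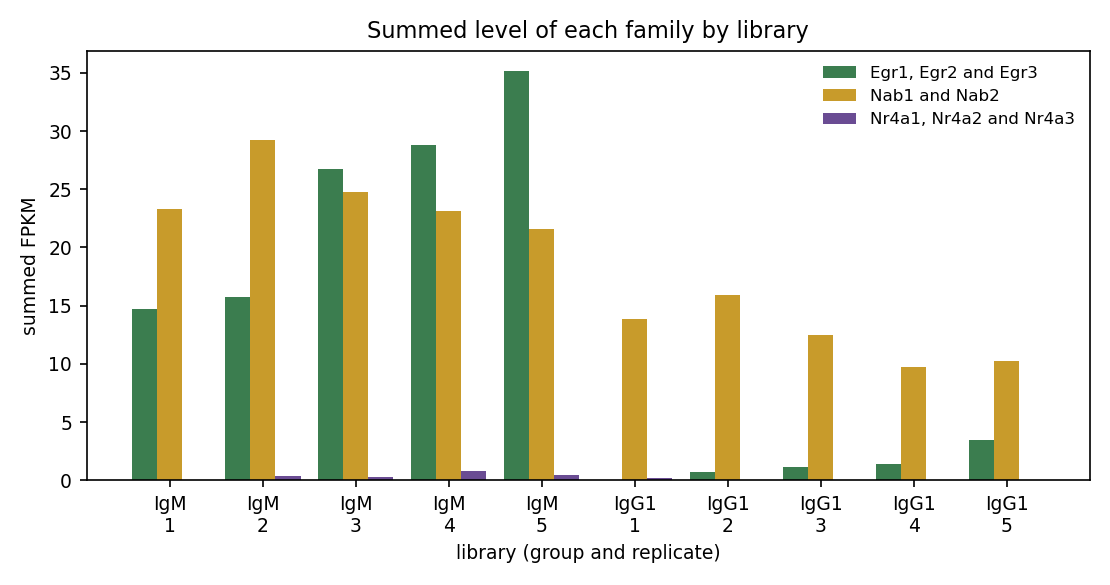
Summed FPKM (vertical axis, from 0) of Egr1, Egr2 and Egr3, of Nab1 and Nab2, and of the 3 Nr4a genes in each of the 10 libraries, IgM left of IgG1. In IgM libraries the Egr bars reach 14.7 to 35.1 FPKM and in IgG1 libraries at most 3.47 FPKM, while Nab bars stand at 21.6 to 29.3 FPKM in IgM and 9.71 to 15.9 FPKM in IgG1.

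Among the 9900 tested genes the median log2 difference was 0.05, and 5% lay below -0.69 and 5% above 1.11. A larger difference was found for 54 genes in the case of Egr1, 49 for Egr2, 156 for Nab2 and 1167 for Nab1. For Egr2 and Nab2, which entered the test through their IgM level, this place is a description only. The size of the Egr2 difference is also set by the pseudocount, since IgG1 was at 0: with a pseudocount of 0.1 it was 6.19, against 4.10 for Egr1, and with a pseudocount of 5 it was 1.30, against 1.71 for Egr1, so that their order turned. A log2 difference of at least 1 with an adjusted p under 0.05 was found in 5.09% of tested genes.

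**Figure D3:**
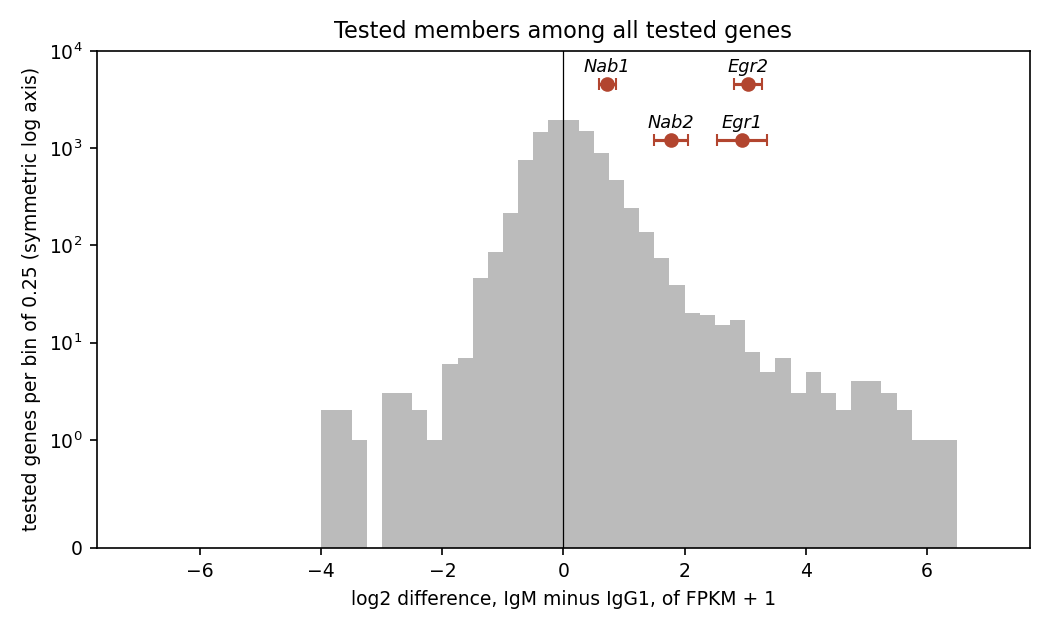
Number of tested genes (vertical axis) by log2 difference, IgM minus IgG1, of FPKM + 1 (horizontal axis), with Egr1, Egr2, Nab1 and Nab2 marked at their difference ± SE. Egr2 lies at 3.04, Egr1 at 2.95, Nab2 at 1.78 and Nab1 at 0.72, and the median of all tested genes is 0.05.

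The genes most like Egr1, Nr4a1 and Nab2 over the 10 libraries were found by the smallest root mean square difference of log2(FPKM + 1) after centring. Fos, the AP-1 subunit and another immediate early gene, was nearest to Egr1, at 0.407. Fos was at 59.4, 52.7, 63.6, 79.0 and 141 FPKM in IgM replicates 1 to 5 and at 1.45, 7.98, 6.94, 6.42 and 27.0 FPKM in IgG1 replicates 1 to 5. As with Egr1, replicate 5 was the highest in each group and IgG1 replicate 1 the lowest of all. The kappa variable segment Igkv1-117 (0.520) and the gene model Gm8369 (0.530) followed. Nearest to Nab2 were Vamp1, a vesicle fusion protein (0.312), Dusp5, a nuclear phosphatase of ERK (0.364), and the noncoding gene Dleu2 (0.379). Vamp1, Dusp5 and Dleu2 shared with Nab2 that IgG1 replicate 1 was the highest IgG1 library. In Vamp1 it stood at 4.71 FPKM against 1.47 to 2.41 FPKM in the other 4. Shared patterns of this kind, also that of Fos with Egr1, are what the choice by likeness looks for. Nr4a1 lay under 1 FPKM, where adding 1 before the log leaves little variation. Its nearest genes were Hnrnpu (0.125), Ell2 (0.128) and Adgre5 (0.132), all of which had small differences between the groups.

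Around these genes, lists of the pathway were described by counts, each tested within all 9900 genes, of which 20.2% were called higher and 18.1% lower in IgM. Other immediate early genes were mostly higher in IgM: of 26, 20 were tested, 13 were higher and 1 lower, with a median log2 difference of 1.04. Among the 13, Rgs1 averaged 0.294 FPKM in IgG1 and 2.58 FPKM in IgM. It was tested only through its IgM level, so its call carries no weight of its own. Zfp36, which destabilizes cytokine mRNAs, averaged 140.2 ± 19.6 FPKM in IgM and 45.0 ± 3.94 FPKM in IgG1 (log2 difference 1.61, limma adjusted p = 5.29e-10). Dusp5 averaged 14.7 ± 1.58 FPKM in IgM and 4.36 ± 1.01 FPKM in IgG1 (1.56, adjusted p = 7.96e-07). Dusp2, another phosphatase of MAP kinases, averaged 7.37 ± 1.94 FPKM in IgM and 1.70 ± 0.752 FPKM in IgG1, and Nfkbia, the NF-kB inhibitor, 64.1 ± 5.73 FPKM in IgM and 32.2 ± 8.52 FPKM in IgG1. The 1 that fell was Myc, a growth regulator, with 10.5 ± 2.48 FPKM in IgM libraries and 18.0 ± 2.23 FPKM in IgG1 (-0.74, adjusted p = 0.00115; SD, n = 5 each throughout).

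Of 20 transcription factors that act on EGR and NR4A genes, 19 were tested, with a median log2 difference of 0.41. At an adjusted p under 0.05 by limma, 7 were higher in IgM and 0 lower, where 20.2% of all tested genes were higher. With quantile normalization 4 were higher. Among the 7, Nfatc2 averaged 0.680 FPKM in IgG1 and 1.95 FPKM in IgM. It was tested only through its IgM level, so its call carries no weight of its own. Mef2c, a calcium-responsive MADS box factor, averaged 164 ± 10.7 FPKM in IgM and 82.1 ± 9.10 FPKM in IgG1 (0.99, adjusted p = 2.32e-08). Crem, of the CREB family, averaged 29.0 ± 4.82 FPKM in IgM and 16.9 ± 3.54 FPKM in IgG1. Elk4, an ETS partner of SRF, and Nfatc1, a calcineurin target, were also higher, by 0.49 and 0.70 on the log2 scale. Srf itself, chosen here because the CArG box is its site, averaged 1.51 ± 0.323 FPKM in IgM and 1.46 ± 0.530 FPKM in IgG1 and did not pass (adjusted p = 0.895).

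Among signalling genes upstream, the counts were near the shares over all tested genes. Of 21 genes of the RAS and ERK cascade, 17 were tested, 4 were higher and 4 lower in IgM, with a median of 0.11. Without IgG1 replicates 4 and 5, 2 were higher. Among the higher was the kinase Braf, with 7.20 ± 0.881 FPKM in IgM libraries and 2.88 ± 0.890 FPKM in IgG1 libraries. Rasgrp2, a calcium-responsive exchange factor, was lower, with 7.93 ± 2.63 FPKM in IgM libraries and 21.0 ± 4.12 FPKM in IgG1 (-1.34, adjusted p = 6.42e-05 by limma), as was Map2k2 by 0.39 on the log2 scale. Of 17 genes of the calcium and calcineurin route, 16 were tested, 3 were higher and 3 lower (5 lower with quantile normalization), with a median of -0.08. Itpr2, a calcium release channel, averaged 16.3 ± 3.72 FPKM in IgM and 4.84 ± 2.40 FPKM in IgG1 (1.64, adjusted p = 5.38e-05). Plcg2, a phospholipase downstream of the antigen receptor, was lower, with 57.0 ± 5.08 FPKM in IgM libraries and 74.4 ± 5.99 FPKM in IgG1 libraries.

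Of the NuRD subunits that NAB proteins bring to EGR targets, 11 of 13 were tested, 0 were higher and 6 lower in IgM by limma, where 18.1% of all tested genes were lower, with a median of -0.22. With no filter on low values 2 were lower. Rbbp7, a histone-binding subunit, averaged 116 ± 8.74 FPKM in IgM and 148 ± 7.41 FPKM in IgG1 (-0.35, adjusted p = 3.93e-04). Chd4, the ATPase through which NAB2 contacts the complex and named here for that role, averaged 6.96 ± 1.84 FPKM in IgM and 5.95 ± 1.08 FPKM in IgG1 and did not pass (adjusted p = 0.485).

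Genes tied to EGR2 and EGR3 in lymphocytes were mostly too low to test. Of 18, 8 were tested, 2 were higher in IgM and 0 lower by limma, with a median of 0.24, and such a share of higher genes is near the 20.2% over all tested genes. Itch, a ubiquitin ligase of T cell anergy, averaged 35.4 ± 1.89 FPKM in IgM and 20.5 ± 2.54 FPKM in IgG1 (0.77, adjusted p = 1.27e-05). Ikzf1, the lymphoid factor Ikaros, differed by 0.33 (adjusted p = 0.0343) and lost its call in 10 of 21 other settings. Of 13 genes tied to NR4A factors in lymphocytes, 6 were tested, with 1 higher, 2 lower and a median of -0.07, too few to set against the 20.2% higher and 18.1% lower over all genes. Irf4, a plasma cell factor repressed by NR4A proteins in mouse lymphocytes, differed by 0.24 (adjusted p = 0.0496) and lost its call in 10 settings, and the 2 lower were Myc and Rxrb, a partner receptor of NR4A proteins. The Rxrb call, at -0.40, was lost in 5 settings.

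Heat shock genes, which cell handling can induce together with immediate early genes, were counted beside these. Of 11, 9 were tested, 1 was higher and 6 were lower in IgM, where 18.1% of all tested genes were lower, with a median of -0.48. Hspe1, a mitochondrial cochaperonin, averaged 74.1 ± 2.96 FPKM in IgM and 129 ± 9.32 FPKM in IgG1 (-0.80, limma adjusted p = 4.75e-08), and Hspa8, a constitutive chaperone, 290.0 ± 19.2 FPKM in IgM and 440.0 ± 59.9 FPKM in IgG1. Hspa1a, Hspa1b and Hspb1, stress-inducible members looked at after the counts, had higher means in IgM, and none of them passed. Hspa1b averaged 2.72 ± 2.14 FPKM in IgM libraries and 0.953 ± 0.651 FPKM in IgG1 libraries (adjusted p = 0.123 by limma). Hspa1a (1.37 ± 1.27 FPKM in IgM, 0.512 ± 0.343 FPKM in IgG1) and Hspb1 (0.460 ± 0.438 FPKM in IgM, 0.116 ± 0.123 FPKM in IgG1) were under the filter. The 1 called higher was Dnaja1, a cochaperone, with 99.3 ± 4.12 FPKM in IgM libraries and 80.5 ± 7.85 FPKM in IgG1 libraries. The part of cell handling in the immediate early differences was not tested. Nor was the part of the Ighg1 share in IgM libraries given above.

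**Figure D4:**
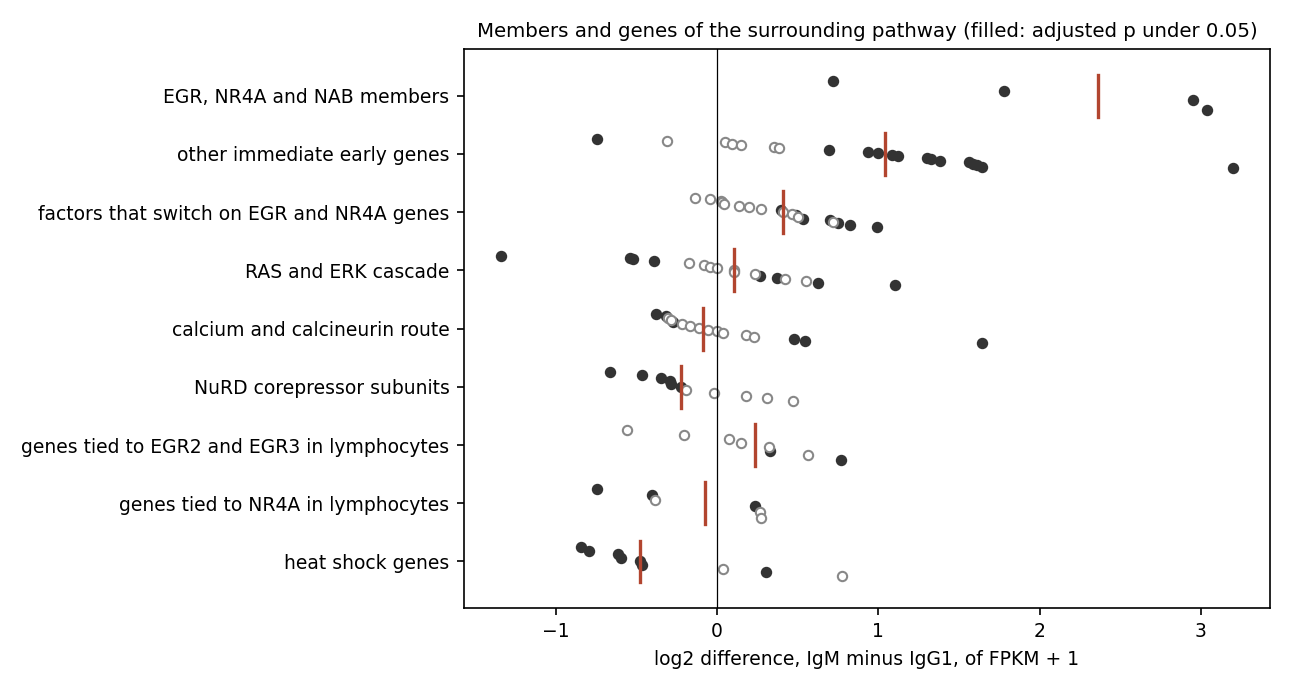
Log2 difference, IgM minus IgG1, of FPKM + 1 (horizontal axis) for the 4 tested members (top row) and each tested gene of the pathway lists (below). Points are filled where the adjusted p is under 0.05, with the median of each row as a red line. The top row has a median of 2.36 and includes Egr2 and Nab2, which were tested only through their IgM level. Other immediate early genes centre on 1.04 and factors that act on EGR and NR4A genes on 0.41, while NuRD subunits centre on -0.22 and heat shock genes on -0.48.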

How the data were processed

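The 5 IgM and 5 IgG1 libraries of sorted splenic plasma cells came from miRNeasy Micro RNA and the Takara SMART-Seq mRNA HT LP chemistry, per the labels' protocols, which does not keep strand. The deposited values are FPKM, per the file headers. Per the submitters' processing notes, HISAT2 2.1.0, Cufflinks 2.2.1, Cuffdiff and the build GRCm38 were used by the authors. The role and settings of each tool and the annotation release were not given in the sources used here.

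The tables were joined over 47719 identifiers, of which 47305 matched GENCODE M21 on GRCm38 and 414 did not. Groups came from the sample titles. Genes averaging 1 FPKM or more were tested on log2(FPKM + 1), which understates changes of low genes, with limma 3.58.1 in R 4.3.3 (trend and robust, group only, two-sided, Benjamini-Hochberg adjustment over 9900 genes, threshold 0.05). The code was tested on simulated data. Depth was estimated from steps between low values with fragments of 200 bases assumed, so it carries no counting interval. Tables and figures used Python 3.11.15, pandas 2.3.3, numpy 2.4.6 and matplotlib 3.10.9. The genes, lists and tests were chosen with earlier results of these data known. From each list up to 4 genes that passed, by smallest adjusted p, were eligible to be named, and for Egr1, Nr4a1 and Nab2 the 3 nearest genes. Genes named beyond this rule were chosen after their values were seen or for their role. They were Srf, Chd4, Egr4, Cd4, Tnfrsf17, Nfatc2, Rgs1, Cr2 and Cxcr5. Heat shock genes other than Hspe1 and Hspa8, and those called lower in short lists, were also such genes. Alternatives covered 21 settings of pseudocount, filter, scaling, model and libraries. Some items are not reported here. No library was left out, and the labels give no batch.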

Additional observations from a re-analysis of the deposited data

Results flagged for a closer look

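Single libraries stood apart from the other 4 of their group by Dixon's test in 11 of the 86 groups examined with any spread (46 genes in 2 groups). For normally spread values chance gives about 1 in 20. FPKM near 0 is not spread in that way, so the count cannot be held against that rate. Among the EGR, NR4A and NAB genes, Nr4a2 was at 0.131 FPKM and Nr4a3 at 0.0879 FPKM in IgM replicate 4, with the other IgM libraries at 0. Nr4a3 was at 0.238 FPKM in IgG1 replicate 1, with the others at 0. A gene above 0 in a single library of a group is always flagged, so these Nr4a2 and Nr4a3 flags carry no weight. Nab2 was at 2.78 FPKM in IgG1 replicate 1, against 0.0847 to 0.716 FPKM in the other 4, and Vamp1 was at 4.71 FPKM in that library, against 1.47 to 2.41 FPKM. In IgG1 replicate 5, Fos was at 27.0 FPKM, against 1.45 to 7.98 FPKM in the others, and Nfkbia at 47.1 FPKM, against 25.8 to 30.8 FPKM. Dusp2 was at 2.99 FPKM in IgG1 replicate 4, against 1.24 to 1.72 FPKM. Among IgM libraries, Mef2c was at 182 FPKM in replicate 4, against 156 to 163 FPKM, Itpr2 at 22.7 FPKM in replicate 3, against 13.1 to 15.3 FPKM, and Ell2 at 172 FPKM in replicate 1, against 198 to 206 FPKM.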

How the results depend on the processing

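Over 21 alternative settings, no gene changed direction among those that passed and whose difference was recomputed. Genes that were not tested, or did not pass, were not followed there, and without IgG1 replicate 1 the mean of Nr4a3 was 0.0176 FPKM in IgM and 0 in IgG1, in place of 0.0176 and 0.0477 FPKM. Of the EGR, NR4A and NAB genes, 4 were higher in IgM in each setting but one: with a filter at a mean of 5 FPKM the count was 2, because Egr2 and Nab2 were then not tested. Where tested, log2 differences ran from 1.71 to 4.10 for Egr1, 1.30 to 6.19 for Egr2, 0.57 to 0.82 for Nab1 and 0.76 to 2.93 for Nab2, and the highest adjusted p was 0.00797, for Nab1. Without single libraries, or without IgG1 replicates 4 and 5, which had stood apart in earlier work on these data, all 4 were still called. Calls were lost for Ikzf1 and Irf4 in 10 settings each, Adgre5 in 7, Rxrb in 5, Mta2 in 2 and Gatad2a and Hnrnpu in 1 each; the cause was not tested. Over all genes, 1502 to 2120 were higher and 1316 to 2182 lower, and with quantile normalization 40.9% of calls were higher in IgM in place of 52.8%. It was not settled whether replicate numbers pair the libraries. Deviations of same-numbered libraries correlated at -0.04 to 0.10, 0 of 5 over 0.1. Yet 3 of 5 IgM libraries correlated best with the IgG1 library of their own number. With the replicate number as a block, 4 of the genes, 1952 of all genes and 31 of the pathway lists were higher in IgM, and 0, 1749 and 19 were lower. Depth rests on an assumed fragment length, and low levels limit Egr3 and the Nr4a genes most.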

Other observations

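Several genes of the same lists were too low for the filter and are given as values, chosen after they were seen. Tnfrsf9, an activation-induced costimulatory receptor tied to EGR2 and EGR3 in T cells, was at 0.312, 0, 0.531, 0.942 and 0 FPKM in IgM replicates 1 to 5 and at 0 in all IgG1 libraries. Fosb, an AP-1 subunit, was at 0.728, 0.358, 0.324, 0.657 and 1.77 FPKM in IgM and at 0.0987, 0.101, 0.0383, 0.0429 and 0.269 FPKM in IgG1. Its libraries did not overlap between the groups, and with no filter its limma adjusted p was 0.0936. Icosl, the ligand of the T cell costimulator ICOS, was at 0.610, 1.57, 2.29, 0.660 and 1.80 FPKM in IgM and at 0.295, 0.598, 0.475, 0.208 and 0 FPKM in IgG1 (adjusted p = 0.0609 by limma with no filter). Tgfb1, a suppressive cytokine, was at 4.44 FPKM in IgM replicate 4 and at 0.462 to 0.741 FPKM in the other IgM libraries, against 0.126 to 0.778 FPKM in IgG1.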
